A study of Mus musculus with 28 samples.

Results

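Nuclei that carried no detected HA-tagged Cas9 were compared between the hemispheres of mice that had received a miR-124 vector on one side and its empty counterpart on the other. Of the 28 libraries of the series, 14 belong to this comparison: all those whose labels list the sorted nuclei as Cas9-HA-tag negative, 7 from the side of the vector AAV-Cas9-miR-124-empty and 7 from the side of AAV-Cas9-miR-124-g4. The groups are called empty and g4. The animals, numbered 17 to 23, gave 1 library to each group. The empty vector was injected into the left and the g4 vector into the right motor cortex, so vector and side of the brain cannot be told apart. Both sides received an AAV (adeno-associated virus) vector named for the nuclease Cas9, and all tissue was fixed before nuclei were isolated, stained for the HA tag and sorted. Nuclear RNA was sequenced, so the levels are those of RNA in nuclei. Strain, age, promoter and what g4 stands for are not named in the labels, and a nucleus in the HA-negative gate need not come from a cell that the vector never entered.

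The microRNA miR-124 is abundant in neurons and scarce in glia. It guides Argonaute proteins to matching sites in the 3' untranslated regions (3' UTRs) of messenger RNAs, which are then translated less and degraded faster. Many of its known targets are genes of non-neuronal cells, and others encode regulators of splicing and chromatin that change as neurons mature. HA-negative nuclei of injected tissue hold glia together with neurons, and they are compared here between the hemispheres. Whether they report on cells without the vector cannot be told from the gate.

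The HA-negative libraries held between 310408 counts (g4, animal 18) and 824276 counts (empty, animal 21), with 11181 to 13668 genes detected and 16.6 to 37.3% of counts in ribosomal RNA. Levels are given as CPM, counts scaled to library size with TMM factors (edgeR's correction for library composition). Xist was at 0 in the HA-negative libraries of animals 17 to 20 and present in those of animals 21 to 23, in both hemispheres of each animal, and Y-linked genes gave the reverse picture apart from 2 counts of Uty in the empty library of animal 22. Library profiles correlated as well between vectors as within one: the median Pearson correlation of log2 levels across genes was 0.838 within a vector, 0.846 between the hemispheres of an animal and 0.833 between vectors in different animals. Genes are not independent replicates, so these correlations are descriptions.

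Markers of neurons and of every glial class were present in these nuclei. With all 28 libraries scaled together, the summed level of 24 microglia markers was 450 to 901 CPM in empty HA-negative libraries and 38.2 to 92.2 in empty HA-positive ones. Oligodendrocyte markers summed to 1829 to 2931 against 348 to 702 CPM. Inhibitory neuron markers went the other way, with 1140 to 1572 CPM in empty HA-negative and 3565 to 5071 CPM in empty HA-positive libraries. Pan-excitatory markers summed to 3196 to 4299 CPM in empty HA-negative libraries, and the ranges of the fractions overlapped for this list only among these 4. Markers of endothelial cells (at most 51.2 CPM in sum), mural cells and fibroblasts (at most 55.8) and lymphocytes (at most 29.6) were low in every HA-negative library, here scaled within this fraction, and no member of those lists had enough counts to be tested. Of the lymphocyte list, Cd3e, Cd3d, Cd79a, Trac and Trbc2 were at 0 in all 14 libraries, and so were Acta2 and Higd1b of the mural list.

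No gene differed between g4 and empty at the threshold used. Of 41549 genes, 6262 had enough counts to be tested, and edgeR's quasi-likelihood test called 0 of them (0%) at a Benjamini-Hochberg adjusted p under 0.05. An unadjusted p under 0.05 was reached by 236 genes, 3.77% of those tested, where 313 would be reached by chance. They divided into 129 with the higher mean under g4 (2.06%) and 107 with the lower (1.71%). DESeq2 called 1 gene, B2m, and limma voom called 0. Directions were even: 3082 of 6262 genes (49.2%) had a positive log2 fold change of g4 against empty, and the median was -0.00. Genes higher in 7 of 7 animals numbered 54 (0.862%) and genes lower in 7 of 7 numbered 51 (0.814%). The 7 g4 libraries lay wholly above the 7 empty libraries for 4 genes (0.0639%), B2m, Cd164, Tmem106b and Mid2, and wholly below them for 2 genes (0.0319%), Zfp266 and Slc6a6. The p-values rest on the spread between the 7 libraries within each group, without a term for the animal, so they do not use the pairing of hemispheres. A fit with the animal as a block also called 0 genes.

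**Figure D1:**
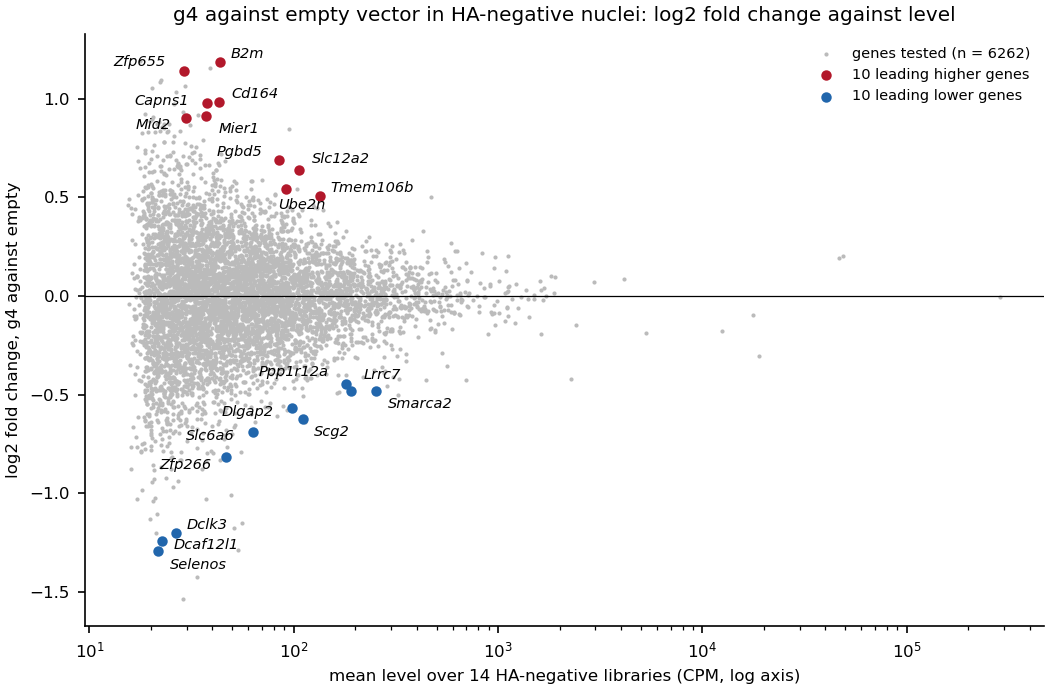
Log2 fold change of g4 against empty (vertical axis) by the mean level over the 14 HA-negative libraries in CPM (horizontal log axis), 1 point for each of the 6262 genes tested. The 10 leading higher and 10 leading lower genes (coloured, named) have the smallest p-values among genes that moved one way in at least 6 of 7 animals, and 0 genes passed the adjusted threshold.

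What the depth allowed depended on the level of the gene. The median standard error (SE) of a log2 fold change was 0.27 over all genes tested, and for 5037 of 6262 genes (80.4%) the 95% confidence interval lay within 1 log2 unit of 0. Below 20 CPM this held for 35.4% of 297 genes, between 20 and 50 CPM for 68.7% of 2961 genes, and between 50 and 100 CPM for 96.0% of 1639 genes. From 200 to 500 CPM the median SE was 0.13, from 411 genes. These intervals are not adjusted for the number of genes, and a 2-fold difference could stay uncalled: B2m, at 1.18 ± 0.27, had an adjusted p of 0.426.

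The leading gene was B2m, which encodes beta-2 microglobulin, the invariant light chain of class I antigen-presenting molecules (chromosome 2, 122147686 to 122153083, GRCm38). Its level was 14.6 CPM in the lowest, 28.0 in the median and 33.3 in the highest empty library, and 37.4, 64.6 and 79.5 CPM under g4. The groups did not overlap, and each animal had more B2m on the g4 side, with the smallest gap in animal 20 (30.8 and 37.4 CPM). The means were 26.4 ± 7.44 and 60.7 ± 15.0 CPM (SD, n = 7), resting on 103 and 232 counts in all. The log2 fold change was 1.18 ± 0.27 (SE; 95% interval 0.64 to 1.73) with an unadjusted p of 6.81e-05 and an adjusted p of 0.426 by edgeR. DESeq2 placed the adjusted p at 0.04998, just under its threshold. B2m overlaps Patl2 on the opposite strand. The strand setting of the counting is not given, so reads from the stretch they share cannot be told apart. In HA-positive nuclei B2m had 20.4 CPM with empty and 32.2 with g4, and the difference of the effects between fractions was -0.48 ± 0.55 (adjusted p 0.996).

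The rest of the class I pathway was thinly measured. Of 17 genes, 4 were tested and 13 fell below the filter on low counts. The 3 others that were tested fold or load class I molecules in the endoplasmic reticulum. Canx (calnexin) had means of 292 and 319 CPM in empty and g4 (0.12 ± 0.12), Calr (calreticulin) 140 and 149 CPM (0.09 ± 0.17) and Pdia3 109 and 125 CPM (0.19 ± 0.16). Their differences lay within or near 1 SE. The heavy chains that pair with the B2m product were below the filter: H2-K1 had 23 counts in the empty libraries and 27 under g4, and H2-D1 36 and 39; they are named here after their values were seen. The summed level of the 17 genes was 532 to 703 CPM in empty and 659 to 782 CPM in g4 libraries, higher under g4 in 7 of 7 animals. Without B2m the sum was higher in 5 of 7 animals (501 to 670 against 580 to 720 CPM). None of the 17 interferon response genes was tested, and their sum was 28.0 to 80.3 CPM in empty and 34.8 to 64.2 CPM in g4 libraries.

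Cd164, which encodes the sialomucin endolyn of lysosomes and the cell surface, followed B2m among the higher genes (chromosome 10, 41519414 to 41531048). It is a reported miR-124 target. Its 3' UTR of 2207 bases holds 2 full 8mer sites for miR-124, shown here in their surroundings on the plus strand of GRCm38, with the site in capitals (the bases that pair with miRNA positions 2 to 8, then an A). Lrrc58, the reported target called in HA-positive nuclei of these animals, is shown for comparison. Its 3' UTR of 7396 bases holds 1 8mer, shown here, and 2 7mer-m8 and 2 7mer-A1 sites, shorter kinds defined below. The first Cd164 window spans chr10:41529490-41529519, the second chr10:41530379-41530408, and the Lrrc58 window chr16:37882026-37882055.
Cd164 first site: aaatcagaacaGTGCCTTAagacagactga
Cd164 second site: aatgttttcaaGTGCCTTActtgtttaaac
Lrrc58 8mer site: gatatgttataGTGCCTTAatcctagtaag
The windows share the 8 capital letters, which are what the search required. In the 3' UTRs of 6055 tested genes, an 8mer (GTGCCTTA) was present in 3.67%.

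Cd164 ranged from 14.0 CPM through a median of 29.6 to 41.1 CPM in empty libraries and from 41.4 through 62.1 to 70.8 CPM in g4 libraries. The groups did not overlap, though the highest empty and lowest g4 libraries were nearly level. Means were 28.7 ± 9.47 and 57.4 ± 12.2 CPM (SD, n = 7; 113 and 224 counts), a log2 fold change of 0.98 ± 0.27 (95% interval 0.44 to 1.52). Each animal had more on the g4 side, and edgeR gave an adjusted p of 0.999. Lrrc58 in the same nuclei ranged from 81.5 through 106 to 143 CPM in empty and from 69.0 through 144 to 174 CPM in g4 libraries. Of its g4 libraries 4 lay above the highest empty library and 3 below the lowest, it was higher in 4 of 7 animals, and its log2 fold change was 0.22 ± 0.20 (95% interval -0.18 to 0.62). The difference between its effects in HA-positive and HA-negative nuclei was 1.05 ± 0.30, with an adjusted p of 0.797. For Cd164 this difference was -0.66 ± 0.41 (adjusted p 0.996). The log2 fold change of Cd164 in HA-positive nuclei was 0.30 ± 0.32 (adjusted p 0.918 by edgeR).

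Tmem106b and Mid2 were the other higher genes whose groups did not overlap. Tmem106b encodes a lysosomal membrane protein (chromosome 6, 13069759 to 13089269). It had 80.3, 108 and 133 CPM in the lowest, median and highest empty library and 140, 156 and 188 CPM under g4, a log2 fold change of 0.51 ± 0.16 (95% interval 0.19 to 0.82). Mid2 encodes a microtubule-associated ubiquitin ligase (chromosome X, 140664599 to 140767715). It had 11.2, 19.6 and 29.6 CPM in empty and 31.0, 39.4 and 45.0 CPM in g4 libraries (0.90 ± 0.31). Both were higher in 7 of 7 animals, each with an adjusted p of 0.999.

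The other leading higher genes overlapped between groups. Slc12a2 encodes the chloride importer NKCC1, had 47.4 to 117 CPM in empty and 108 to 170 CPM in g4 libraries, and was higher in 6 of 7 animals (0.64 ± 0.19). Animal 17 was the exception, with 117 CPM on the empty and 110 CPM on the g4 side. In HA-positive nuclei Slc12a2 had 13.9 CPM with empty and 50.1 with g4 (1.92 ± 0.57, adjusted p 0.390 by edgeR). The difference of its effects between fractions was 1.33 ± 0.57 (adjusted p 0.924). Of the leading higher genes, 9 were tested in HA-positive nuclei and 7 of them had a positive value there. Of the leading lower genes, 8 were tested there and 6 had a negative value. The share of all genes with the same sign in both fractions was not counted, so these counts have no background to be set against. The remaining chloride transport genes gave no like picture: 8 of 11 were tested, 4 had positive and 4 negative values, and the median was 0.02. Slc12a5, the chloride exporter KCC2 of mature neurons, had 280 ± 37.4 CPM with empty and 257 ± 41.3 with g4 (-0.13 ± 0.13), and Wnk1, a kinase that controls both transporters, 225 and 222 CPM.

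Zfp655, a zinc finger gene, had means of 17.7 and 40.7 CPM (1.14 ± 0.34). Capns1, the regulatory subunit of the calpain proteases, had 24.9 and 50.2 CPM (0.98 ± 0.30) and overlaps an antisense transcript. Mier1, a transcriptional corepressor gene that overlaps Wdr78 on the opposite strand, had 25.5 and 48.9 CPM (0.91 ± 0.29). Each of these 3 had under 200 counts in either group. Pgbd5, a gene derived from a piggyBac transposase, had 65.0 and 105 CPM (0.69 ± 0.21), and Ube2n, a ubiquitin-conjugating enzyme that builds non-degradative ubiquitin chains, had 75.0 and 109 CPM (0.54 ± 0.18). Of the 10 leading higher genes, 7 were higher in 7 of 7 animals and 4 carried a miR-124 site of any class. They were picked for moving one way in at least 6 of 7 animals, so the first count partly follows from that choice. Of the 6055 tested genes with a 3' UTR, 71.9% carried no such site. Whether 4 of 10 differs from the share among all these genes was not tested.

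Smarca2 led the lower genes. It encodes BRM, an ATPase of the BAF chromatin remodelling complex (chromosome 19, 26605050 to 26778322). Its level was 214, 307 and 339 CPM in the lowest, median and highest empty library and 172, 215 and 241 CPM under g4. The groups overlapped only because of animal 21, whose empty library had 214 CPM, and each of the 7 animals had less on the g4 side. Means were 294 ± 44.0 and 209 ± 22.4 CPM (SD, n = 7; 1103 and 805 counts). The log2 fold change was -0.48 ± 0.13 (95% interval -0.73 to -0.23, unadjusted p 0.000374, adjusted p 0.999 by edgeR). Smarca2 overlaps 2 antisense genes, and reads from the stretches they share could not be assigned to one gene.

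The BAF complex was measured well, with 20 of 26 subunit genes tested. Of these, 6 had positive and 14 negative values, and the median was -0.09 against -0.00 for all genes tested. The alternative ATPase gene Smarca4 is not among those taken by the naming rule and is given after its value was seen: its log2 fold change was -0.08 ± 0.18. Smarcc2, a core scaffold subunit, had 152 and 168 CPM (0.12 ± 0.17), and Arid1a, the largest DNA-binding subunit, 161 and 153 CPM (-0.08 ± 0.15). The summed level of the 26 genes was 1414 to 1745 CPM in empty and 1149 to 1486 CPM in g4 libraries, higher under g4 in 1 of 7 animals. Without Smarca2, left out after its values were seen, the sum was 1145 to 1406 CPM in empty and 936 to 1314 CPM in g4 libraries, higher under g4 in 3 of 7 animals. For the sum of all 26 genes, the lowest value came from the g4 library of animal 20, and the other 6 g4 libraries lay between 1391 and 1486 CPM.

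Zfp266 and Slc6a6 were the lower genes whose groups did not overlap. Zfp266, a zinc finger gene (chromosome 9, 20495068 to 20521417), had 41.6, 54.7 and 88.1 CPM in empty and 23.6, 33.1 and 41.4 CPM in g4 libraries. The gap between the highest g4 and the lowest empty library was 41.4 against 41.6 CPM, and the log2 fold change was -0.81 ± 0.26. Slc6a6 encodes the taurine transporter (chromosome 6, 91684053 to 91759066) and had 68.5, 73.4 and 101 CPM in empty and 25.2, 50.3 and 68.2 CPM in g4 libraries (-0.69 ± 0.23). Here too the nearest libraries were almost level, at 68.2 and 68.5 CPM, both from animal 22.

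Several of the other lower genes act in neurons. Scg2, the dense-core vesicle protein secretogranin II, had 98.7 to 187 CPM in empty and 44.8 to 117 CPM in g4 libraries and was lower in 7 of 7 animals (-0.63 ± 0.19). Dlgap2, a scaffold of the postsynaptic density, had means of 118 and 79.2 CPM (-0.57 ± 0.18), and Lrrc7, another postsynaptic scaffold (densin), 223 and 160 CPM (-0.48 ± 0.16). Dclk3, a doublecortin-like kinase, had 37.2 ± 16.0 and 15.7 ± 7.26 CPM (-1.20 ± 0.36). Selenos, an endoplasmic reticulum selenoprotein, and Dcaf12l1 had -1.29 ± 0.41 and -1.24 ± 0.40, both on fewer than 50 counts under g4. Without animal 22, whose empty library had 70.5 CPM, Selenos stood at -0.75. Ppp1r12a, the targeting subunit of myosin phosphatase, had 208 and 151 CPM (-0.45 ± 0.14), against 123 and 186 CPM in HA-positive nuclei. The difference of its effects between the fractions was 1.02 ± 0.28 with an adjusted p of 0.797. Among the 10 leading lower genes, 7 were lower in 7 of 7 animals, 2 carried a miR-124 site, and the adjusted p was 0.999 for each. These genes too were picked for moving one way in at least 6 of 7 animals. No site was carried by 71.9% of the tested genes with a 3' UTR.

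**Figure D2:**
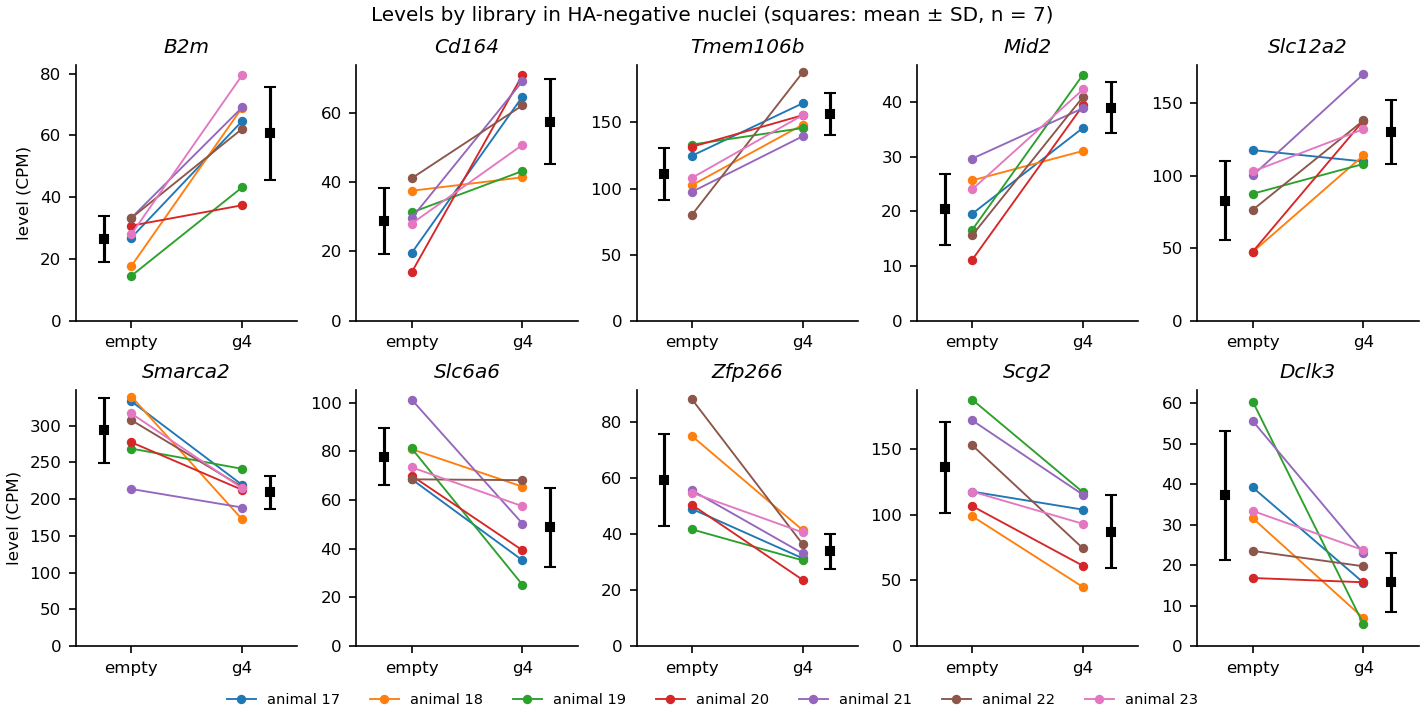
Levels in CPM (vertical axes, from 0) of 10 leading genes in each HA-negative library, empty on the left and g4 on the right of each panel, with a line for each of the 7 animals and squares for mean ± SD. B2m, Cd164, Tmem106b and Mid2 have every g4 library above every empty one, and Slc6a6 and Zfp266 every g4 library below.

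The miR-124 genes themselves did not differ in these nuclei beyond their error. The hairpins Mir124a-1 (chromosome 14), Mir124a-2 (chromosome 3) and Mir124a-3 (chromosome 2) were at 0 in all 14 libraries, which allows up to 0.749 CPM over the empty and 0.743 CPM over the g4 group (3 counts of each total, for counting error only). The mature microRNA is too short for such libraries and was not analysed here. Mir124-2hg, the long noncoding host of Mir124a-2, had 11.8, 30.8 and 76.1 CPM in empty and 27.6, 43.1 and 52.4 CPM in g4 libraries, with the g4 range inside the empty one. Its log2 fold change was 0.15 ± 0.30 (95% interval -0.46 to 0.76). Mir124a-1hg, which holds Mir124a-1, had 56.8, 78.9 and 137 CPM in empty and 75.7, 95.9 and 122 CPM in g4 libraries (0.14 ± 0.19, 95% interval -0.25 to 0.53). A change of either host by 2-fold lies outside these intervals.

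Genes with miR-124 sites had medians close to that of genes without. Sites were searched as GTGCCTT (7mer-m8), TGCCTTA (7mer-A1) or both together (8mer), on the strand of the transcript, in the longest annotated 3' UTR. Of 6055 tested genes with a 3' UTR, 222 (3.67%) had an 8mer, 857 (14.2%) a 7mer-m8, 625 (10.3%) a 7mer-A1 and 4351 (71.9%) none. The median log2 fold changes in HA-negative nuclei were 0.04, 0.01, 0.01 and -0.01 in that order. Genes with any site had positive values in 52.2% of cases, those with an 8mer in 56.3% and genes without in 48.5%. At an unadjusted p under 0.05, 45 genes with a site were on the higher and 19 on the lower side (7 and 2 with an 8mer), beside 81 and 86 genes without. None of these was called, and the difference between the classes was not tested. The same 8mer genes that were tested in HA-positive nuclei (162) had a median of 0.17 there, and those without a site (3380) -0.04.

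By animal, the median of 8mer genes minus that of genes without a site was 0.06, 0.14, 0.01, 0.10, 0.12, -0.07 and 0.00 in HA-negative nuclei, in order from animal 17 to 23. It was positive in 6 of 7 animals, with animal 22 negative. For genes with any site the difference was between -0.03 (animal 19) and 0.06 (animal 18). Genes with sites had longer 3' UTRs, at a median of 3094 bases against 1393 for those without, and the part of UTR length was not tested.

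**Figure D3:**
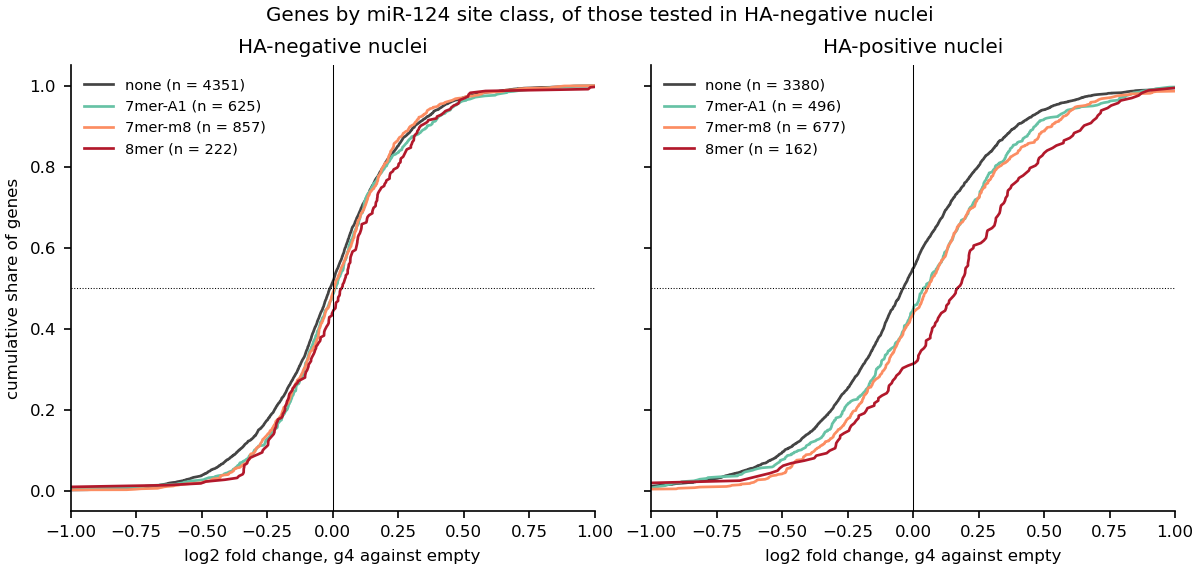
Cumulative share of genes (vertical axis) by log2 fold change of g4 against empty (horizontal axis) for genes with an 8mer, a 7mer-m8, a 7mer-A1 or no miR-124 site, in HA-negative nuclei (left) and, for those of the same genes that were tested there, HA-positive nuclei (right). The curves lie close together on the left, with medians from -0.01 to 0.04, and further apart on the right, with medians from -0.04 to 0.17.

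Of 32 reported miR-124 targets, 13 were tested, 6 with positive and 7 with negative values, and the median was -0.01. Cd164 was the 1 target with an unadjusted p under 0.05, 7.69% of those tested beside 3.77% of all genes. Egr1, an immediate early transcription factor, had 402 and 392 CPM (-0.04 ± 0.12), and Nr3c1, the glucocorticoid receptor, had 111 and 144 CPM (0.36 ± 0.18, higher in 7 of 7 animals). The splicing repressor Ptbp1, the target best known from neuronal differentiation, was below the filter, with 48 counts in empty and 38 in g4 libraries. It is named outside the rule, after its value was seen. Among splicing regulators of the nervous system, 14 of 15 were tested, with a median of 0.01. Elavl3, a neuronal RNA-binding protein, was at 128 to 163 CPM in empty and 49.2 to 157 CPM in g4 libraries (-0.40 ± 0.18, unadjusted p 0.0331).

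Of 14 genes of the microRNA machinery, 11 were tested, 4 with positive and 7 with negative values, with a median of -0.10, and each of the 11 intervals lay within 1 log2 unit of 0. Ago2, the Argonaute that can cut its target, had 144 ± 31.2 CPM with empty and 135 ± 27.9 with g4 (-0.10 ± 0.16). Ago3 had 112 and 118 CPM, and the silencing scaffold Tnrc6b 183 and 184 CPM.

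The genes called in HA-positive nuclei of these animals were checked here as well. Oip5os1, the long noncoding RNA Cyrano, had 371, 509 and 627 CPM in empty and 372, 476 and 634 CPM in g4 HA-negative libraries. The ranges coincide almost exactly, and the log2 fold change was -0.03 ± 0.12 (95% interval -0.26 to 0.20). The difference of its effects between the fractions was -0.85 ± 0.19, the smallest p of that comparison, with an adjusted p of 0.414. Vamp1, a vesicle fusion protein of axon terminals, had 76.0 and 55.7 CPM (-0.47 ± 0.27), and the difference between fractions was -0.63 ± 0.35.

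The test of that difference, with all 28 libraries in 1 model, called 0 of 7197 genes (0%), with 359 (4.99%) under an unadjusted p of 0.05 where 360 would be reached by chance. DESeq2 and limma voom also called 0. In the HA-positive comparison alone, 3 of 5011 genes (0.0599%) were called. The other genes with the smallest p for the difference were Tns3 (tensin 3, a focal adhesion protein), Mir99ahg, Ppp1r12a and Phactr1 (a regulator of actin and of protein phosphatase 1). In HA-negative nuclei Phactr1 had 282 to 442 CPM with empty and 233 to 355 CPM with g4 (-0.30 ± 0.12, lower in 7 of 7 animals), and its difference between fractions was 0.83 ± 0.23 (adjusted p 0.797). Tns3 was at 24.9 and 26.6 CPM (0.12 ± 0.33) and Mir99ahg, the host of the miR-99a cluster, at 30.8 and 21.3 CPM (-0.48 ± 0.37), which without animals 17 and 18 became 0.0755. No result of the HA-negative nuclei is thereby shown to be particular to them.

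Cell type markers were compared next, as lists and by their summed levels. In bulk libraries, fewer nuclei of a type and less RNA per nucleus cannot be told apart. Microglia markers had the highest median of the lists with at least 4 tested members: 15 of 24 were tested, 12 with positive and 3 with negative values, and the median was 0.36, against -0.00 for all genes. Without animal 21 the median was 0.15. Their sum was 463, 612 and 920 CPM in the lowest, median and highest empty library and 677, 824 and 1001 CPM in g4 libraries. It was higher under g4 in 5 of 7 animals, with the largest gap in animal 21 (463 and 1001 CPM) and lower values in animals 17 and 22. Ctss, the lysosomal protease cathepsin S, had 92.0 ± 27.0 and 121 ± 36.7 CPM (0.41 ± 0.20, unadjusted p 0.0478, adjusted p 0.999), and 0.21 ± 0.21 without animal 21 (unadjusted p 0.334). Csf1r, the receptor on which microglia depend for survival, had 87.4 and 113 CPM (0.37 ± 0.20). B2m is also expressed by microglia, and the part of these markers in the B2m difference was not tested.

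Genes listed for reactive microglia were mostly too low to test, with 4 of 16 tested and a median of 0.01. With all 28 libraries scaled together, the list summed to a median of 572.5 CPM in empty HA-negative and 511.3 CPM in empty HA-positive libraries. Microglia markers summed to medians of 603.5 and 46.3 CPM in the same groups, so this list does not report on microglia alone. Ctsd, the lysosomal protease cathepsin D, had 112 to 192 CPM in empty and 142 to 245 CPM in g4 libraries (0.37 ± 0.15, higher in 6 of 7 animals). Apoe, a lipid carrier of astrocytes and microglia, had 63.2 to 206 CPM in empty and 50.9 to 142 CPM in g4 libraries (-0.23 ± 0.22), and Ctsb, cathepsin B, 270 and 259 CPM. Tspo, Ccl3 and Ccl4 were at 0 in all 14 libraries. Among the 12 reactive astrocyte genes only Stat3 was tested, with 25.9 and 22.2 CPM.

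Astrocyte markers gave 7 positive and 4 negative values among 11 tested, with a median of 0.05. The major astrocytic glutamate transporter gene Slc1a2 had 1105 ± 109 and 1122 ± 164 CPM (0.02 ± 0.09). Slc1a3, the other transporter of this kind, had 88.1, 105 and 132 CPM in empty and 116, 132 and 214 CPM in g4 libraries. The upper empty libraries overlapped the lower g4 ones, and the log2 fold change was 0.45 ± 0.16 (unadjusted p 0.00867, higher in 6 of 7 animals, adjusted p 0.999). Glul, glutamine synthetase, had 180 and 201 CPM.

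In the oligodendrocyte list, 16 of 20 markers were tested, 13 with positive and 3 with negative values, and the median was 0.13. Trf (transferrin) had 248 and 276 CPM, and Mal, a myelin proteolipid, 209 and 226 CPM. The sum over the list was 1835 to 2993 CPM in empty and 2069 to 3881 CPM in g4 libraries, and 2069 to 3024 CPM is the g4 range apart from animal 21.

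Oligodendrocyte precursor markers had 8 positive and 2 negative values among 10 tested, with a median of 0.14. Pdgfra, the growth factor receptor that defines these cells, had 7.89, 29.4 and 53.9 CPM in empty and 47.0, 50.9 and 75.9 CPM in g4 libraries (0.72 ± 0.29, higher in 6 of 7 animals). Sox10, a transcription factor of the whole lineage, had means of 14.0 and 27.1 CPM (0.91 ± 0.43) and one g4 library at 1.97 CPM. Tnr (tenascin-R) and Ptprz1, a receptor phosphatase, were level, at 0.08 ± 0.14 and 0.06 ± 0.17. The list's sum was higher under g4 in 4 of 7 animals.

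**Figure D4:**
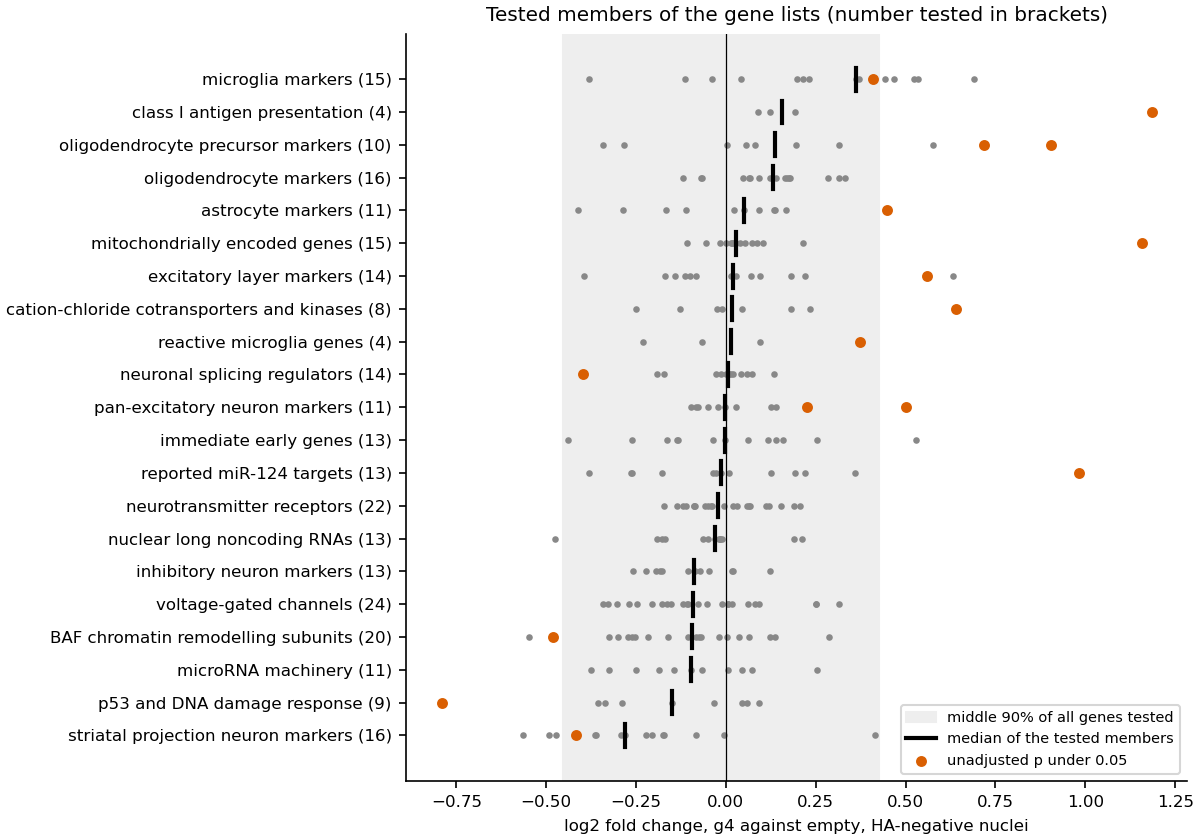
Log2 fold change of g4 against empty in HA-negative nuclei (horizontal axis) for each tested member of the gene lists (points, number tested in brackets), with the list median as a bar and members under an unadjusted p of 0.05 in orange. The grey band holds the middle 90% of all 6262 genes, and the medians run from -0.28 for striatal projection neuron markers to 0.36 for microglia markers.

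Markers of neurons of the cortex were level in their medians. Pan-excitatory markers, 11 of 12 tested, had a median of -0.00. Chn1 had 584 ± 60.1 and 584 ± 51.4 CPM, and Nrgn, a calmodulin-binding postsynaptic protein, 623 and 589 CPM. Mef2c, a transcription factor of cortical neurons, had 578 ± 103 and 677 ± 91.1 CPM (0.23 ± 0.11), and Neurod6 had 52.2 and 73.5 CPM (0.50 ± 0.24), both higher in 6 of 7 animals with an unadjusted p of 0.0428 and 0.0449. Layer markers, 14 of 16 tested, had a median of 0.02. Etv1, a transcription factor of deep-layer neurons, had 37.5, 74.8 and 100 CPM in empty and 87.9, 112 and 119 CPM in g4 libraries (0.56 ± 0.19, higher in 7 of 7 animals, unadjusted p 0.00557, adjusted p 0.999).

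Inhibitory neuron markers had 3 positive and 10 negative values among 13 tested, with a median of -0.09. Gad1 and Gad2, the enzymes that make the transmitter GABA, had -0.05 ± 0.15 and -0.26 ± 0.14. None of the 13 had an unadjusted p under 0.05, a share of 3.77% among all genes, so the absence says nothing particular of this list. Every one of their intervals lay within 1 log2 unit of 0.

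Markers of striatal projection neurons were present in all 14 libraries, although the tissue is labelled motor cortex, and they varied more between libraries than any other list of neuron or glia markers. Their sum differed 5.36-fold between the highest and the lowest library, against 1.46-fold for pan-excitatory and 1.57-fold for astrocyte markers. In empty libraries it was 1576, 2234, 2705, 1865, 3882, 3202 and 1912 CPM for animals 17 to 23, and in g4 libraries 762, 724, 2578, 1795, 2814, 2937 and 2605 CPM. The g4 libraries of animals 17 and 18 stand apart at the low end, and the other 5 lie inside the empty range. Of 16 tested members, 1 had a positive and 15 a negative value, with a median of -0.28, and without animals 17 and 18 the median was -0.07. Pde10a, a phosphodiesterase of striatal neurons, had 589 ± 227 and 479 ± 255 CPM (-0.29 ± 0.40), and Adcy5, their adenylyl cyclase, had 305 and 235 CPM. Meis2, a transcription factor also made outside the striatum, had 140 and 104 CPM (-0.42 ± 0.18, unadjusted p 0.0274). Without animals 17 and 18 the leading lower genes had values between -1.46 (Selenos) and -0.33 (Ppp1r12a), with Smarca2 at -0.36, Dclk3 at -1.11 and Scg2 at -0.67, and B2m was at 1.06. In those libraries 0 of 6563 genes were called by edgeR, with 244 under an unadjusted p of 0.05.

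**Figure D5:**
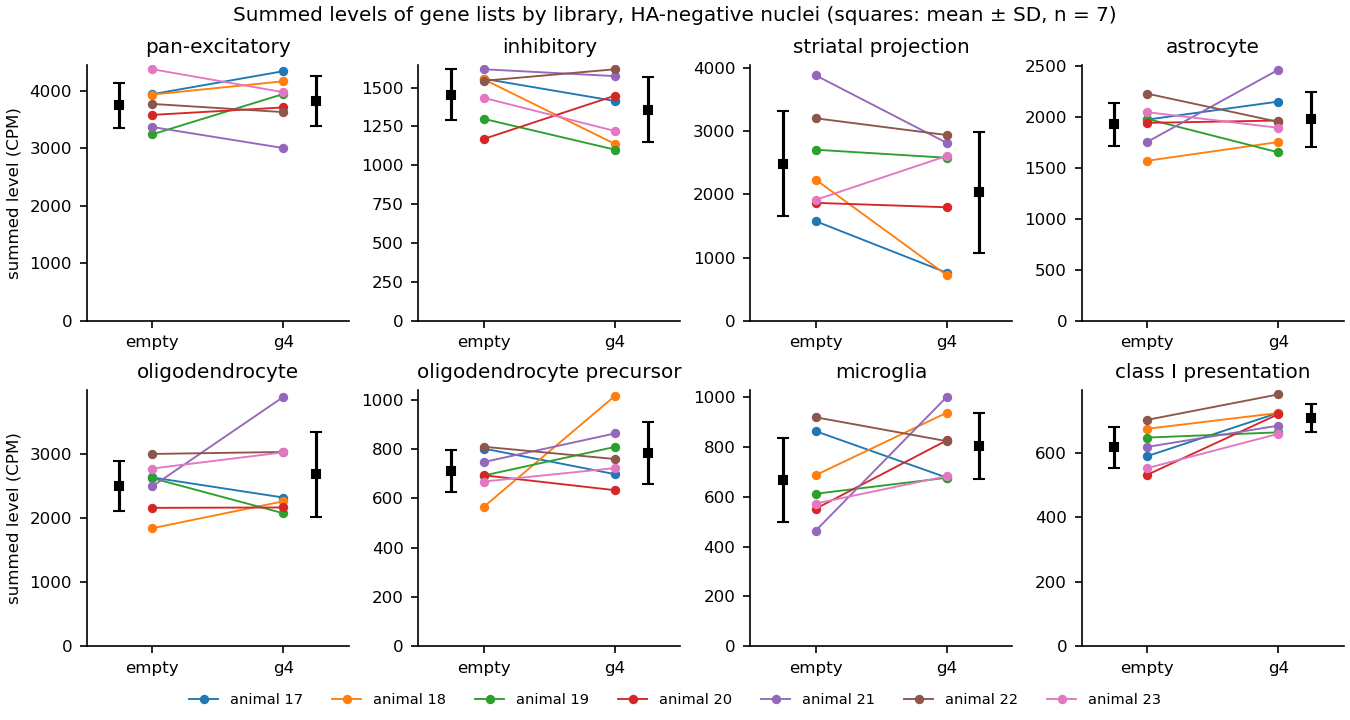
Summed level in CPM (vertical axes, from 0) of 7 lists of cell type markers and the class I list in each HA-negative library, empty on the left and g4 on the right of each panel, with a line for each of the 7 animals and squares for mean ± SD. The class I sum, which includes B2m, is higher under g4 in 7 of 7 animals (5 of 7 without B2m, not drawn). The striatal sum is higher in 1 of 7, and the g4 libraries of animals 17 and 18 have the lowest striatal sums, 762 and 724 CPM.

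Genes of excitability were compared as receptors and channels. All 22 tested neurotransmitter receptor genes and all 24 voltage-gated channel genes had intervals within 1 log2 unit of 0, with medians of -0.02 and -0.09. No member had an unadjusted p under 0.05, beside 3.77% of all genes, a share too low to set these lists apart. Grin2b, an NMDA receptor subunit, had 1612 ± 171 and 1649 ± 85.0 CPM (0.03 ± 0.08), and Gria2, the AMPA receptor subunit that limits calcium entry, 796 and 834 CPM. Scn2a, a sodium channel of axons, had 588 ± 39.4 and 622 ± 42.4 CPM, and the calcium-activated potassium channel gene Kcnma1 531 and 513 CPM. Immediate early genes, which follow neuronal activity, had a median of -0.00 over 13 tested, with Homer1 at 322 and 321 CPM and Egr3 at 144 and 160 CPM.

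Genes of the p53 and DNA damage response, which nuclease cutting can engage, had 3 positive and 6 negative values among 9 tested, with a median of -0.15 that became 0.0465 without animal 17 and -0.02 without animals 17 and 18. Parp1, a sensor of DNA breaks, had 36.7, 50.4 and 146 CPM in empty and 23.0, 39.4 and 60.9 CPM in g4 libraries. The groups overlapped, and the log2 fold change was -0.79 ± 0.27 (unadjusted p 0.00528, lower in 6 of 7 animals, adjusted p 0.999). The highest empty library was that of animal 18, without which the value was -0.52 ± 0.27 (unadjusted p 0.0624). Plk2 had 168 and 164 CPM, Trp53bp1 101 and 107 CPM, and Zmat3, a p53 target, 73.8 and 79.0 CPM. Cdkn1a, the p53 target most often measured, was below the filter with 36 and 35 counts and is named outside the rule, after its value was seen.

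Among nuclear long noncoding RNAs, 13 of 16 were tested, with 2 positive and 11 negative values and a median of -0.03. Malat1 had 13227 ± 3212 and 11702 ± 1482 CPM (-0.18 ± 0.15), Meg3 1736 and 1521 CPM (-0.19 ± 0.18) and Rian 718 and 692 CPM. Without animals 17 and 18 Meg3 had the smallest p of the comparison, at -0.46 ± 0.10 (unadjusted p 4.26e-05, adjusted p 0.280), and without animal 18 alone it was at -0.38. The 15 mitochondrially encoded genes had a median of 0.03. mt-Nd6 had 9.79, 22.7 and 48.2 CPM in empty and 20.3, 43.2 and 132 CPM in g4 libraries (1.16 ± 0.35, unadjusted p 0.0023). It was the only member of this list with an unadjusted p under 0.05. Its level was higher in 5 of 7 animals, a count shared by mt-Nd1, mt-Atp6, mt-Rnr1 and mt-Rnr2. The mt-Nd6 gene overlaps mt-Nd5 on the opposite strand, and only reads from the stretch they share could not be assigned to one of them. mt-Co1 had 2884 and 3031 CPM and mt-Rnr2, the large ribosomal RNA of mitochondria, 3999 and 4245 CPM.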

How the data were processed

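Nuclear RNA of motor cortex nuclei was measured in 28 libraries, of which the 14 HA-negative ones were analysed and the 14 HA-positive ones entered the test between fractions. The authors deposited raw counts per gene, per the labels, and no header or label names the aligner, counter, strand setting or use of molecular identifiers. The build is GRCm38, per the submitters' processing notes. Empty cells were read as 0, 1 entry without a gene name (with 0 counts) was left out, and for animals 21 to 23 the number in the column name is 1 higher than in the sample title; descriptions tie each column to its sample. Positions and 3' UTRs came from GENCODE vM21, with 41474 of 41549 genes matched. The marker check with all libraries and the list of HA-positive values use TMM factors over 28 libraries or the HA-positive ones.

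Genes were tested with the robust two-sided quasi-likelihood test of edgeR 4.0.16 (R 4.3.3), after its filterByExpr and TMM steps, with Benjamini-Hochberg adjustment over all genes tested. The main fits had no term for the animal. SE is the log2 fold change over the root of F. Per-animal values are log2(CPM + 2). DESeq2 1.42.0 and limma 3.58.1 (voom) were alternatives, beside other factors, filters, each animal left out, and the animal as a block. Scripts were tested on simulated data. The labels pair the samples, since each animal gave both hemispheres; deviations of same-animal libraries from their group means correlated at 0.00527 to 0.118, and 3 of 7 libraries correlated best with their own animal.

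Named genes were the 10 higher and 10 lower with the smallest p that moved that way in at least 6 of 7 animals, miR-124 genes, the 3 most abundant tested members of each of 29 lists and those under an unadjusted p of 0.05, the 5 genes with the smallest p between fractions, and the 3 called in HA-positive nuclei. A few genes that this rule names are not reported here. The comparison, members and lists were chosen with earlier results of these data known.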

Additional observations from a re-analysis of the deposited data

Results flagged for a closer look

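A library was singled out where its gap to the nearest of the other 6 of its group exceeded Dixon's 95% critical value of 0.568 of the group's range. This held in 8 of 98 groups of values, and chance alone gives about 1 in 20. The empty library of animal 20 had 37.3% of counts in ribosomal RNA, against 21.3 to 27.2% in the other empty HA-negative libraries, and Mier1 at 5.6 CPM against 22.0 to 33.4. Selenos was at 70.5 CPM in the empty library of animal 22 (others 13.8 to 31.8) and Slc6a6 at 101.3 CPM in the empty library of animal 21 (others 68.5 to 81.2). The g4 library of animal 21 had 161.1 CPM over the miR-124 hairpins and hosts (others 124 to 139). The g4 library of animal 20 had 3 such values: 1149 CPM over the BAF subunits (others 1391 to 1486), 474.3 CPM over the reactive microglia genes (others 593 to 656) and Dcaf12l1 at 29.5 CPM (others 6.06 to 13.8).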

How the results depend on the processing

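The count of genes called between g4 and empty was 0 by edgeR under every alternative run with it, and 1 (B2m, log2 fold change 1.19, adjusted p 0.04998) by DESeq2. Leaving out each animal in turn gave 0 calls each time, at best with an adjusted p of 0.256 (without animal 20). The paired fit, with the animal as a replicate block, also called 0, with 252 genes under an unadjusted p of 0.05, and changed no call. The difference between fractions had 0 calls except with no filter on low counts, which gave 3 of 19569 genes (Gm9833, Cldn11 and Gm49804). B2m kept its sign over 16 alternatives (1.06 to 1.31, adjusted p 0.04998 to 1). The alternative without animals 17 and 18 was added after seeing the data. Under it Mir99ahg went from -0.48 to 0.0755; the cause was not tested. Of 98 tested named genes, 51 lay within their SE and have no direction to keep. Selenos moved most among the leading genes, from -1.29 to -0.75 without animal 22. Medians of lists moved by less than the spread between animals under the alternatives run, but in 12 of 22 lists the sign turned under at least 1 of them, all with medians within 0.149 of 0. Counts below 20 CPM limit precision most.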
